A study of Mus musculus with 9 samples.

Results

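The genes described here encode growth factors of the myeloid lineage and the receptors that read them. They are the ligands Csf1, Il34 and Flt3l and the receptors Csf1r, Csf2ra, Csf2rb, Csf3r and Flt3. These 8 genes were taken by name out of the 27998 genes of the count table. Their levels were read per library over all cells and over cell classes that were named from marker genes.

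Cells of collagenase-treated livers were profiled by droplet-based single-cell RNA-seq in 9 libraries, and the question put to them was how inducing the transcriptional co-activator YAP changes the cells around it. All mice were C57BL/6 and carried ROSA26-rtTA-IRES-EGFP, a doxycycline-controlled transactivator, and all ate doxycycline food. The 2 WT libraries came from mice without the YAP transgene after 7 days of this food, the 4 YAP3d libraries from tetYAP mice after 3 days, and the 3 YAP7d libraries from tetYAP mice after 7 days. YAP3d and WT thus differ in feeding time as well as genotype, and the labels give neither age nor sex. In the study's methods the transactivator depended on Alb-Cre, whose albumin promoter is active in hepatocytes, tetYAP encoded an active form of YAP, and the isolation aimed at liver cells other than hepatocytes. The labels do not say whether libraries came from separate animals, so p-values measure the spread between libraries.

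Csf1, also called M-CSF, and Il34 are alternative ligands of the receptor tyrosine kinase Csf1r, on which the survival of resident macrophages such as Kupffer cells depends. GM-CSF signals through Csf2ra, which binds it, together with Csf2rb, the beta chain that is shared with the receptors of interleukin 3 and interleukin 5. G-CSF signals through Csf3r, which carries neutrophil production, and Flt3l acts on Flt3 to keep dendritic cells in supply. The macrophage and granulocyte receptors are known targets of the ETS-family factor PU.1, the product of Spi1.

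Promoter windows from 250 bases before to 50 after the start were held for 5 of the genes (Csf1, Flt3l, Csf2ra, Csf3r and Flt3). The windows of Csf1, a ligand read mainly in endothelial-like cells of WT and YAP3d livers, and of Csf2ra and Csf3r, receptors of the myeloid classes, are shown as examples of a ligand and of receptors that were read in different cells. Capitals mark GAGGAA, letters often found at PU.1 sites, which were searched together with the reverse complement TTCCTC. In all, 28.3% of the 27025 RefSeq windows of this length hold at least 1. The Csf2ra window at chr19:61228369-61228668 (minus strand) holds 2 adjacent copies, that of Csf3r at chr4:126024409-126024708 (plus strand) holds 1, and that of Csf1 at chr3:107760420-107760719 (minus strand) holds 0, as do those of Flt3 and Flt3l. All coordinates are of GRCm38.p6, and a match is a description of letters, not a site. The table takes 1 start per gene, and for Csf3r, Csf2ra and Flt3l this start lies inside the gene's full annotated span, so that the Csf3r window lies wholly within it.
Csf2ra: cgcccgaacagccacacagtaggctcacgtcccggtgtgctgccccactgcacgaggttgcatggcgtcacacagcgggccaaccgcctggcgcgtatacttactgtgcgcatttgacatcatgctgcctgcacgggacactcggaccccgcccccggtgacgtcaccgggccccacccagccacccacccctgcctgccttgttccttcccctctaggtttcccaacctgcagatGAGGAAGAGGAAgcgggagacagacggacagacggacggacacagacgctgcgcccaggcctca
Csf3r: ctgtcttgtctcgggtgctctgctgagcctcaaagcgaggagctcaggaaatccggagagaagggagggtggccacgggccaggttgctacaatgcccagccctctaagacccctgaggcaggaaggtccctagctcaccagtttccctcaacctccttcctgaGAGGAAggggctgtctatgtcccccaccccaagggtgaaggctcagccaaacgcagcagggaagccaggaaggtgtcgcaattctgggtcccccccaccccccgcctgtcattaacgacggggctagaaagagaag
Csf1: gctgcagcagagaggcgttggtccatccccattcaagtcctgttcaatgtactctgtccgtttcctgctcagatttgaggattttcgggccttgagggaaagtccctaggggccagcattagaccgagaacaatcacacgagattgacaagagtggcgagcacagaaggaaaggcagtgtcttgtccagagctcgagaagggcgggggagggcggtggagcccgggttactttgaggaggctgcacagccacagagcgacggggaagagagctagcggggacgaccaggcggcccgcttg

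In the RefSeq annotation of GRCm38.p6 the 8 genes are protein coding and lie apart from each other, Csf1 on chr3:107741048-107760469, Il34 on chr8:110741829-110805949, Flt3l on chr7:45131183-45136490, Csf1r on chr18:61105572-61131139, Csf2ra on chr19:61217191-61228461, Csf2rb on chr15:78325800-78351001, Csf3r on chr4:126023441-126044975 and Flt3 on chr5:147330741-147400489.

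After a minimum of 200 genes per cell, 8527 of 8562 cells remained, with 281 to 2551 cells and 1288940 to 25056881 unique molecular identifiers (UMIs, captured RNA molecules) per library. The median per cell ran from 3231 to 5083 UMIs in WT and YAP3d and from 5717 to 11472 in YAP7d. Clusters were grouped into 15 classes, each called by the cell type whose markers it carried, and 22 cells were left without a name. Macrophage-like cells made up 5.17% ± 0.826 (SD, n = 2) of WT, 6.41% ± 3.62 (n = 4) of YAP3d and 30.4% ± 12.7 (n = 3) of YAP7d libraries, whereas endothelial-like cells made up 44.2% ± 12.4, 26.7% ± 11.2 and 4.16% ± 0.762. Levels are given in CPM, the UMIs of a gene scaled to the total UMIs of the summed cells, in libraries with at least 10 cells of a class. The predicted gene Gm10709 reached 347 to 611 CPM in YAP3d replicates 1 and 2 and all YAP7d libraries and 3.65 to 11.2 CPM in the others, a split that runs across the groups, and 46 cell barcodes occurred in more than 1 library.

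Most of the genes differed in the cell class where they were highest, and Csf1r and the GM-CSF receptor chains shared several myeloid classes. Csf1r was highest in macrophage-like cells, Csf3r in neutrophil-like, Flt3 in cDC1-like (type 1 conventional dendritic), Flt3l in T-like and NK/ILC-like (natural killer and innate lymphoid), and Csf1, among the classes with at least 2 libraries, in endothelial-like cells over the pooled groups, though not in YAP7d, where hepatocyte-like cells averaged 35.2 CPM and endothelial-like cells 23.6. The GM-CSF receptor chains were spread over the macrophage, monocyte, neutrophil and dendritic classes. The plot of levels by class shows each gene in each library.

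**Figure D1:**
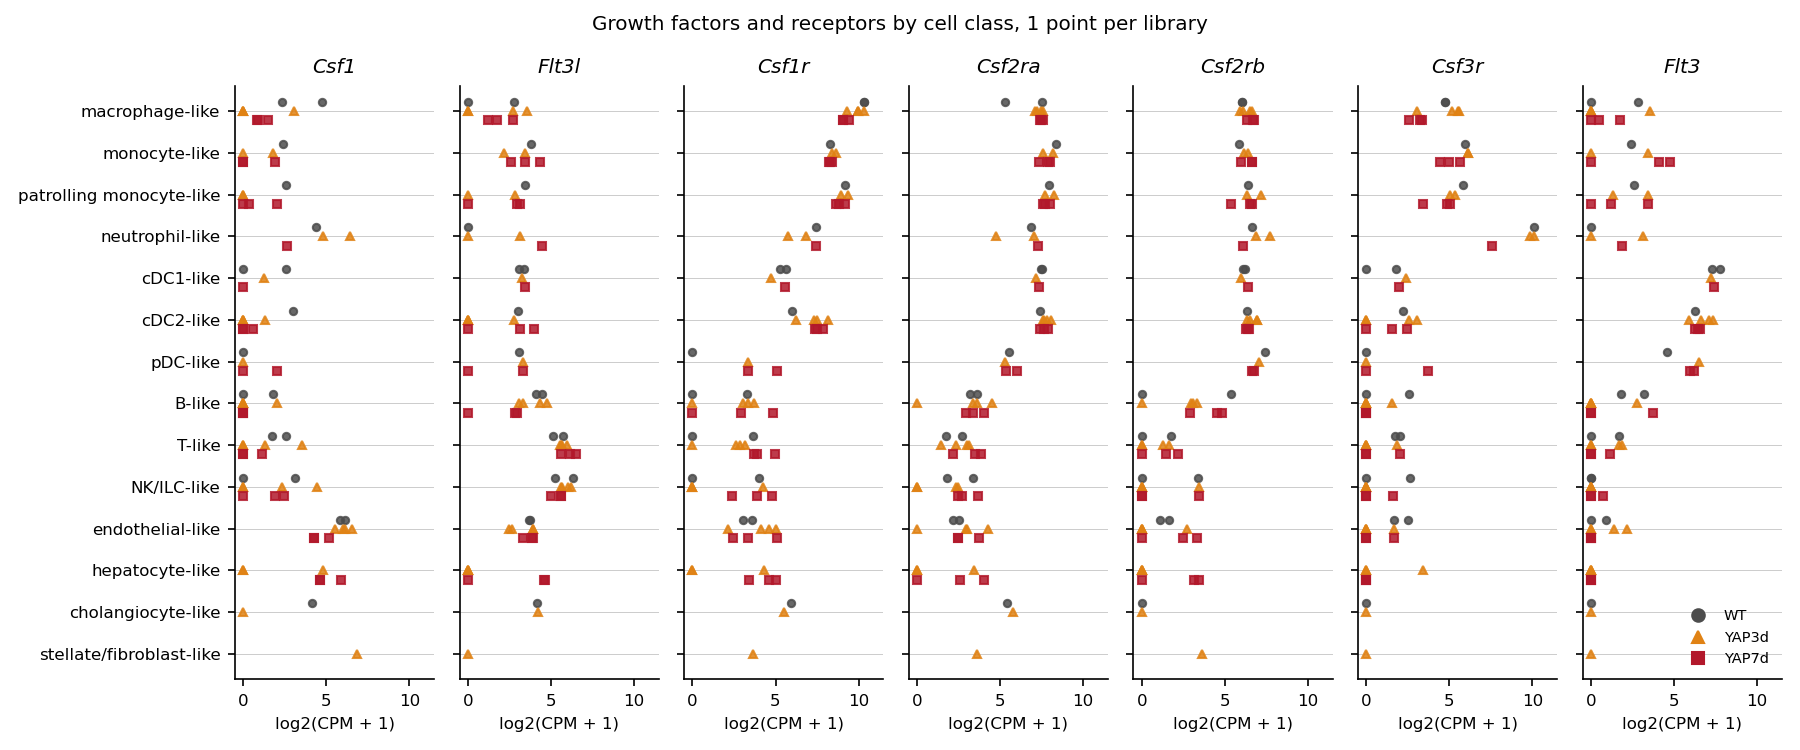
Level of 7 of the 8 genes (log2 of CPM + 1, x axes) in the cell classes (rows), 1 point per library with at least 10 cells of the class, with colour and shape by group. Csf1r points of macrophage-like cells lie between 523 and 1307 CPM, above those of T-like cells at 0 to 30.1 CPM, and Csf3r is highest in neutrophil-like cells.

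Csf1 fell in YAP7d libraries, both over all cells and within endothelial-like cells, which supplied most of it in WT and YAP3d. Over all cells it stood at 33.4 and 24.3 CPM in WT, at 27.2, 12.2, 19.95 and 21.2 in YAP3d and at 4.38, 2.88 and 2.59 in YAP7d. Every YAP7d library lay below every other library, and WT and YAP3d overlapped. The log2 fold change from WT to YAP7d was −2.96 ± 0.33 (SE; edgeR quasi-likelihood test, adjusted p = 0.00431), and from YAP3d to YAP7d −2.46 ± 0.30 (edgeR, adjusted p = 0.00652). Both calls held without any single library. In such sums over all cells, fewer cells of a type and less RNA per cell cannot be told apart, and the share of endothelial-like cells fell alongside. Because the isolation aimed at cells other than hepatocytes, the sums are not levels of the whole liver. The study reported Csf1 as upregulated with YAP overexpression, in a section on whole-liver RNA and hepatocytes of another mouse model.

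Within endothelial-like cells Csf1 read 69.8 and 56.2 CPM in WT, 69.4, 92.3, 44.8 and 63.3 in YAP3d, and 18.1, 18.0 and 34.5 in YAP7d. The YAP7d libraries again lay below all others, although 2 of them rested on 4 UMIs each and the third on 31. Its log2 fold change to YAP7d was −1.12 ± 0.34 from WT (edgeR, adjusted p = 0.0299) and −1.14 ± 0.32 from YAP3d (edgeR, adjusted p = 0.0207). Of the 2 genes of the set that passed the low-count filter in this class, Csf1 was the 1 called and it was called lower, where 8.68% of 7464 genes were called lower and 9.63% higher against WT, and 8.15% lower and 8.99% higher against YAP3d. From WT to YAP3d 0 of the 2 were called, at the adjusted or the unadjusted threshold, by edgeR or DESeq2, beside 0% of all genes at edgeR's adjusted threshold (142 of 7464 at an unadjusted p under 0.05; 0 called by DESeq2).

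The fall within endothelial-like cells was less firm than that over all cells. Against WT the call was lost without WT replicate 1 (−0.95, edgeR adjusted p = 0.141), WT replicate 2 (−1.27, 0.0566), YAP7d replicate 1 (−0.93, 0.100) or YAP7d replicate 2 (−0.93, 0.103), with DESeq2 (−1.14, 0.0977), with a term for the Gm10709 libraries (−1.57, 0.103), with the replicate number as a block (−1.05, 0.112) and without doublets (−0.99, 0.0527). Against YAP3d it was lost without YAP3d replicate 4 (−1.10, 0.0505), YAP7d replicate 1 (−0.96, 0.0783) or YAP7d replicate 2 (−0.96, 0.0800), and with the block (−1.10, 0.0775). The endothelial-like cells also differed between groups in their clusters. In YAP7d 94 of 111 lay in cluster 23, led by Ccl21a, Cldn5 and Pcdh17, while WT and YAP3d cells lay in clusters 4, 7 and 13 apart from 6 cells. Mean Csf1 was 70.8 CPM in cluster 13, 63.5 in cluster 7, 35.0 in cluster 4 and 22.3 ± 11.04 (SD, n = 3) in cluster 23. The summed level of the 14 endothelial markers was 20138 to 22122 CPM in WT, 18969 to 20775 in YAP3d and 10405 to 10577 in YAP7d, with no marker at 0, and its part in the result was not tested.

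At equal depth the endothelial-like cells with a Csf1 UMI were also fewer in YAP7d. With each cell thinned to 2000 UMIs, the share was 8.50 and 10.6% in WT, 6.74 to 16.7% in YAP3d and 0 to 4.17% in YAP7d, after 339 shallower cells were left out. T-like cells, which should hold little Csf1, had 0 to 1.79%. Unthinned, the mean shares were 19.8, 21.0 and 21.8%, with the deepest cells in YAP7d.

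**Figure D2:**
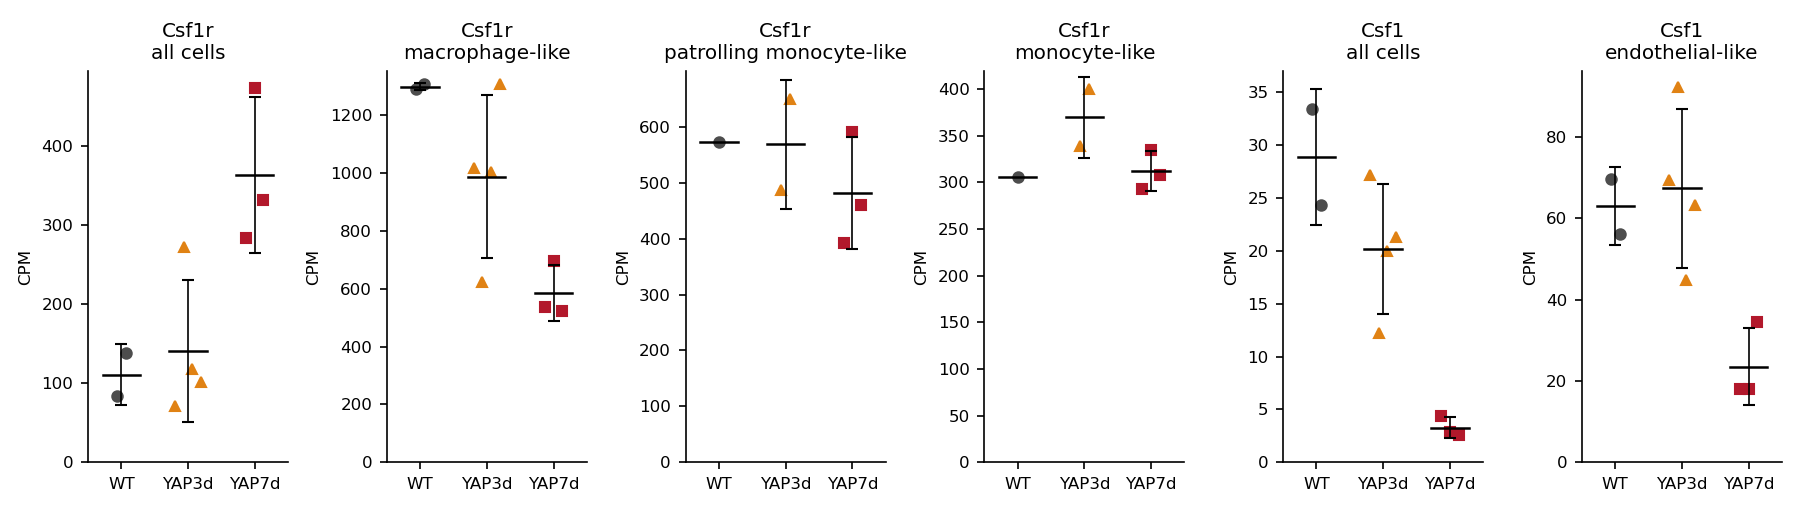
CPM of Csf1r in all cells, macrophage-like, patrolling monocyte-like and monocyte-like cells and of Csf1 in all cells and endothelial-like cells (y axes) in the 3 groups (x axes). Points are libraries, bars group means and error bars SD; in the all-cell panels Csf1r runs from 71.4 to 473 and Csf1 from 33.4 down to 2.59 CPM, and in macrophage-like cells the 3 YAP7d libraries (523 to 696) include values below the lowest of YAP3d (622).

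Endothelial-like cells were not the only cells with Csf1. They averaged 51.8 ± 25.1 CPM (SD, n = 9), which did not exceed the 33.8 ± 34.8 (n = 4) of neutrophil-like cells by more than the spread. That neutrophil-like mean rested on YAP3d replicate 4, at 84.3 CPM against 5.16 to 26.4 in the other 3 libraries. The endothelial markers in its neutrophil-like cells summed to 4550 CPM, with none of 14 at 0, against 0 to 352 CPM in the others, and their part in the Csf1 level was not tested. Of 728 Csf1 UMIs in all, 527 (72.4%) came from endothelial-like cells. The 22 basophil/mast-like cells held 48, in 15 of the cells, which is 538 CPM over the pooled cells (95% Poisson interval 397 to 713), the highest of any class. The 23 stellate/fibroblast-like cells held 16 in 13 cells, 81.7 CPM pooled (46.7 to 133). These intervals cover counting error only, and basophil/mast-like cells reached 10 in no library, so the class entered no comparison.

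The endothelial-like share of Csf1 UMIs was 92.2 and 73.03% in WT, 57.1, 54.1, 73.5 and 84.2% in YAP3d and 16.0, 33.3 and 47.7% in YAP7d. All YAP7d libraries lay below all YAP3d and WT libraries. The YAP7d mean differed by −34.9 percentage points from YAP3d (exact two-sided permutation test, p = 0.0286, the smallest that 3 against 4 libraries allow; adjusted over 21 such tests, 0.15) and by −50.3 points from WT (exact permutation p = 0.1, the smallest possible). In YAP7d replicate 1, 12 of the 25 Csf1 UMIs were in hepatocyte-like cells, and in YAP7d replicate 3, 10 of 65 were in monocyte-like cells.

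In hepatocyte-like cells the Csf1 values did not share the fall. They read 26.8, 0 and 0 CPM in the 3 YAP3d libraries with at least 10 such cells and 58.7, 23.8 and 23.3 in YAP7d, on 2, 0, 0, 12, 3 and 3 UMIs. The groups overlapped, and WT had 3 such cells in all. Csf1 did not pass the low-count filter in this class, and without the filter its log2 fold change from YAP3d to YAP7d was 2.08 ± 1.02 (edgeR, adjusted p = 0.599).

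Il34, the other Csf1r ligand, was close to the limit of detection. It had 15 UMIs in 12 cells over all libraries, of which 7 were in 5 of the 49 cholangiocyte-like cells and 3 in 3 of the 23 stellate/fibroblast-like cells. It passed the low-count filter in no class, and a change was not detectable at this depth.

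Flt3l, the dendritic cell growth factor, was held by lymphocytes. T-like cells averaged 55.8 ± 17.0 CPM (SD, n = 9) and NK/ILC-like cells 53.3 ± 15.8, which did not differ beyond their spread, and the next class with 9 libraries, B-like, had 12.5 ± 8.68. In T-like cells it read 34.1 and 53.1 CPM in WT, 45.2 to 61.3 in YAP3d and 47.4, 91.8 and 71.0 in YAP7d. The groups overlapped, with a log2 fold change of 0.63 ± 0.30 from WT to YAP7d (edgeR, adjusted p = 0.599), in a fit that called 0% of 6493 genes (561 at an unadjusted p under 0.05; 20 called higher and 11 lower by DESeq2). Against YAP3d it was 0.52 ± 0.25 (edgeR, adjusted p = 0.383), where 0.832% of genes were called higher and 0.154% lower, 0.986% in all.

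In NK/ILC-like cells Flt3l read 37.4 and 79.1 CPM in WT, 72.4, 50.7, 65.0 and 48.1 in YAP3d and 47.5, 31.8 and 47.3 in YAP7d. These groups overlapped too (−0.47 ± 0.37 from WT and −0.17 ± 0.32 from YAP3d, neither past edgeR's adjusted threshold), where 7.57% of 4185 genes were called against WT (3.89% higher, 3.68% lower) and 14% against YAP3d (8.17% higher, 5.78% lower). The T markers in this class summed to 1505 to 1515 CPM in WT, 990 to 1927 in YAP3d and 59.0 to 375 in YAP7d, and their part in the Flt3l values was not tested. Over all cells Flt3l stood at 17.2 and 24.9 CPM in WT, 18.8 to 26.4 in YAP3d and 12.02 to 14.8 in YAP7d, all YAP7d libraries being the lowest, and did not pass the test (−0.47 ± 0.26, edgeR adjusted p = 0.232).

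Csf1r, the receptor of Csf1 and Il34, was higher over all cells of YAP7d libraries and lower within their macrophage-like cells. Over all cells it stood at 83.5 and 139 CPM in WT, 71.4, 272, 119 and 101 in YAP3d and 284, 473 and 332 in YAP7d. The YAP7d libraries lay above all others, narrowly in the case of YAP3d replicate 2. The log2 fold change was 1.86 ± 0.53 from WT (edgeR, adjusted p = 0.0375) and 1.51 ± 0.41 from YAP3d (edgeR, adjusted p = 0.0349).

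In macrophage-like cells Csf1r read 1288 and 1306 CPM in WT, 1016, 622, 1003 and 1307 in YAP3d and 535, 696 and 523 in YAP7d. All YAP7d libraries lay well below WT, and YAP3d spanned both. The log2 fold change from WT to YAP7d was −1.20 ± 0.30 (edgeR, adjusted p = 0.0462), that from YAP3d to YAP7d −0.74 ± 0.26 (adjusted p = 0.251), and that from WT to YAP3d −0.46 ± 0.29 (adjusted p = 0.987). Of the 4 genes of the set tested in this class, Csf1r was the only 1 called from WT to YAP7d, and lower, where 1.49% of 6641 genes were called lower and 2.42% in either direction. From YAP3d to YAP7d 0 of 4 were called by edgeR or DESeq2, beside 0.361% of all genes by edgeR (0.0753% higher, 0.286% lower), and 2 of 4 had an unadjusted edgeR p under 0.05, as did 832 of the 6641 genes. From WT to YAP3d it was 0 of 4 by either threshold and either tool, beside 0% of all genes at edgeR's adjusted threshold (306 at an unadjusted p under 0.05; 0 called by DESeq2).

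This call was lost in 7 of 9 fits that left out a library, without WT replicate 1 (−1.19, edgeR adjusted p = 0.194), WT replicate 2 (−1.10, 0.431), YAP3d replicate 1 (−1.19, 0.0789), YAP3d replicate 3 (−1.17, 0.0723), YAP7d replicate 1 (−1.11, 0.135), YAP7d replicate 2 (−1.29, 0.0733) or YAP7d replicate 3 (−1.17, 0.112). The size moved little, from −1.29 to −1.10. With a term for the Gm10709 libraries the fold change was −0.55 (edgeR, adjusted p = 0.990), and with at least 2000 UMIs per cell −1.17 (edgeR, adjusted p = 0.0830). All 4 libraries of WT and YAP3d that lack high Gm10709 read 1003 CPM or more, and of the 2 YAP3d libraries that have it YAP3d replicate 1 read 1016 and YAP3d replicate 2 read 622, and in YAP7d, where all libraries have it, this split and the group cannot be told apart.

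The macrophage-like cells of the groups also lay in different clusters. Cluster 14, led by Clec4f, Vsig4 and Fcna, held 62.1% of them in WT, 40.7% in YAP3d and none in YAP7d, where 49.9% lay in cluster 15 (led by Cd5l and Clec4f) and 50.1% in cluster 21 (led by C1qa, C1qc and C1qb). In cluster 15 Csf1r was 1347 CPM in the WT library with enough cells, 679 on average in 2 YAP3d libraries and 604 ± 99.5 (SD, n = 3) in YAP7d. Cluster 21 averaged 818 CPM in 2 YAP3d and 543 in 3 YAP7d libraries, and cluster 14 averaged 1308 in WT. Summed macrophage markers were 32667 to 36804 CPM in WT, 18959 to 36351 in YAP3d and 18934 to 26960 in YAP7d. Endothelial markers in these cells summed to 1084 to 1119 CPM in WT and 297 to 336 in YAP7d, and the part of either in the Csf1r level was not tested.

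At 2000 UMIs per cell, 78.6 and 88.9% of WT macrophage-like cells had a Csf1r UMI, 63.4 to 89.6% in the 3 YAP3d libraries with at least 10 such cells and 64.3 to 72.6% of YAP7d, with 45 cells left out. T-like cells, which should lack the gene, had 0 to 7.76% by the same measure. Unthinned, the share was higher in YAP7d (mean 96.4%) than in WT (90.3%), the order opposite to that of the CPM.

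Outside macrophage-like cells Csf1r was highest in the monocyte classes. Patrolling monocyte-like cells averaged 525 ± 95.3 CPM (SD, n = 6), monocyte-like cells 330 ± 38.7 (n = 6) and cDC2-like cells 168 ± 74.4 (n = 8), and each step down from the 922 ± 334 (n = 9) of macrophage-like cells exceeded the larger SD of the pair. These means pool the groups, and within YAP7d the macrophage-like (523 to 696 CPM) and patrolling monocyte-like (393 to 591 CPM) libraries overlapped. Neutrophil-like cells (128 ± 57.5, n = 4) did not differ from cDC2-like beyond that spread. In patrolling monocyte-like cells the values were 572 in WT, 487 and 650 in YAP3d and 393, 591 and 460 in YAP7d, and in monocyte-like cells 306, then 339 and 400, then 293, 335 and 308. Both overlapped between YAP3d and YAP7d, at −0.22 ± 0.28 (edgeR, adjusted p = 0.933) and −0.22 ± 0.25 (adjusted p = 0.999). In these classes 0 of 4 genes of the set and 0% of 5971 and 3693 genes were called by edgeR, with 374 and 151 at an unadjusted p under 0.05 and 0 called by DESeq2; of the 4 genes only Csf3r in monocyte-like cells had an unadjusted p under 0.05.

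**Figure D3:**
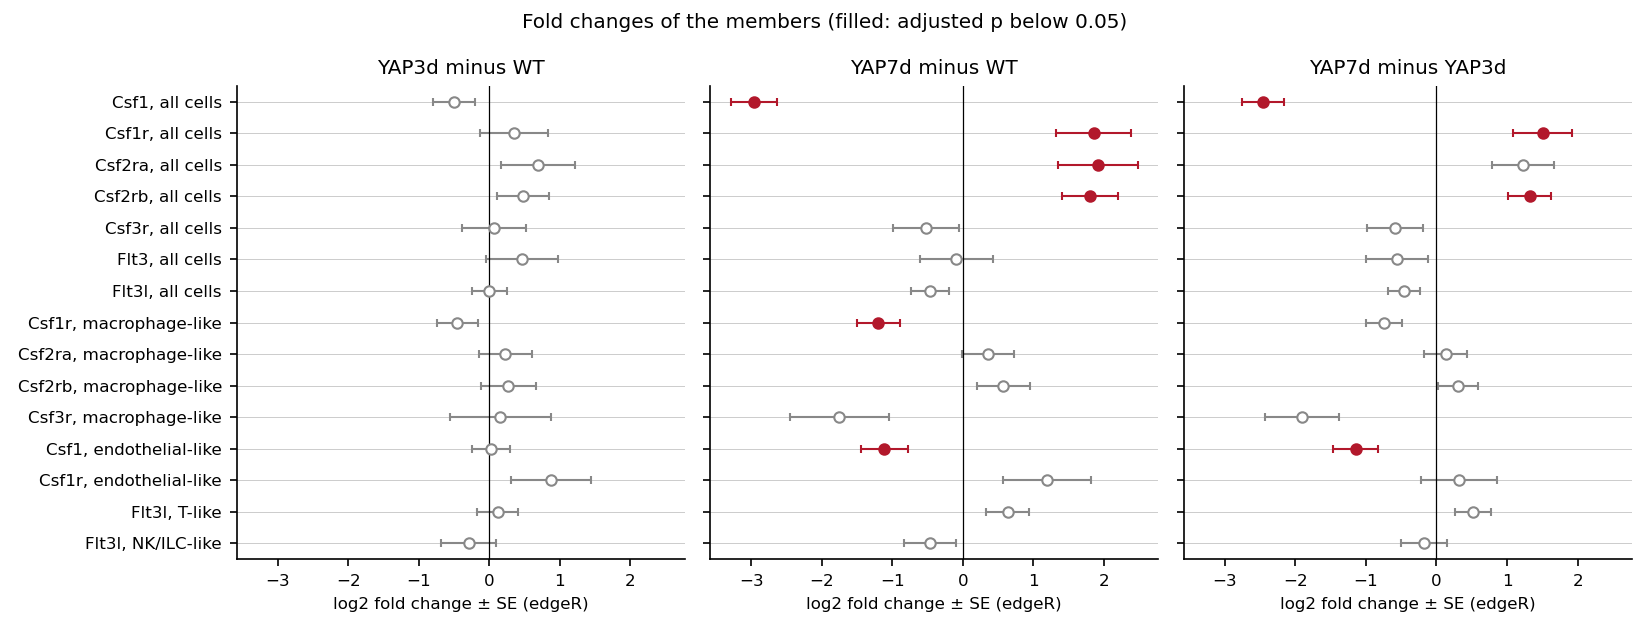
Log2 fold changes (x axis) with SE bars for those of the 8 genes that were tested in all cells and in macrophage-, endothelial-, T- and NK/ILC-like cells (rows), in the comparisons YAP7d with WT, YAP3d with WT and YAP7d with YAP3d. Filled points have an edgeR adjusted p under 0.05; in all cells Csf1 lies at −2.96 and Csf1r at 1.86 between WT and YAP7d, and in macrophage-like cells Csf1r lies at −1.20.

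The GM-CSF receptor chains rose over all cells from WT to YAP7d and did not pass the test within macrophage-like cells. Csf2ra, the binding chain, stood at 29.2 and 55.3 CPM in WT, 42.7, 138, 46.9 and 45.6 in YAP3d and 117, 133 and 177 in YAP7d. Only YAP3d replicate 2, in which patrolling monocyte-like cells held 46.9% of its UMIs, reached the YAP7d range. The log2 fold change from WT to YAP7d was 1.92 ± 0.57 (edgeR, adjusted p = 0.0414) and from YAP3d 1.23 ± 0.44 (edgeR, adjusted p = 0.0791). Csf2rb, the shared chain, stood at 16.7 and 27.7 CPM in WT, 24.1, 46.9, 25.8 and 28.0 in YAP3d and 50.4, 78.6 and 80.9 in YAP7d, with no overlap between YAP7d and the rest. Its fold changes were 1.80 ± 0.40 (edgeR, adjusted p = 0.0146) and 1.32 ± 0.31 (edgeR, adjusted p = 0.0193). The neighbouring gene Csf2rb2 is a close copy whose reads can be split or lost in counting, so the level of Csf2rb is uncertain.

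Together, 3 of the 7 genes tested over all cells were called higher in YAP7d than WT (Csf1r, Csf2ra and Csf2rb), where 7.17% of 12071 genes were, and 1 lower (Csf1), where 10.9% were, 18.1% in either direction. Against YAP3d it was 2 higher, where 6.64% were, and 1 lower, where 9.83% were, 16.5% in either direction; both comparisons share the YAP7d libraries. From WT to YAP3d 0 of 7 were called by edgeR, at either threshold, or by DESeq2, beside 0% of all genes (358 at an unadjusted p under 0.05; 12 called by DESeq2). Csf1 alone kept its WT to YAP7d call in every fit that left out a library. Csf1r lost it without WT replicates 1 (1.504, edgeR adjusted p = 0.244) or 2 (2.33, 0.101), YAP3d replicate 3 (1.84, 0.0567) or YAP7d replicates 2 (1.69, 0.0860) or 3 (1.83, 0.0752). Csf2ra lost it in the same fits (1.51, 0.253; 2.53, 0.0977; 1.89, 0.0543; 2.02, 0.0691; 1.61, 0.103) and without YAP7d replicate 1 (2.09, 0.0563), and Csf2rb only without WT replicate 1 (1.48, 0.125). Against YAP3d the calls of Csf1r and Csf2rb were lost without YAP3d replicates 1, 3 or 4 or YAP7d replicates 2 or 3 (Csf1r 1.28, 1.41, 1.39, 1.34 and 1.501, edgeR adjusted p = 0.0769 to 0.105; Csf2rb 1.21, 1.23, 1.28, 1.30 and 1.11, 0.0545 to 0.0735).

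Within macrophage-like cells Csf2ra read 38.3 and 185 CPM in WT, 138, 176, 191 and 150 in YAP3d and 166, 173 and 192 in YAP7d, where the low WT value rested on 3 UMIs (0.36 ± 0.37 from WT to YAP7d, edgeR adjusted p = 0.665). Csf2rb read 63.8 and 63.7 in WT, 59.2 to 97.0 in YAP3d and 80.7, 106 and 104 in YAP7d (0.57 ± 0.37, edgeR adjusted p = 0.442). The YAP7d values of Csf2rb lay above both WT values but overlapped YAP3d.

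Csf2ra was highest in the monocyte, conventional dendritic and macrophage classes and lower in plasmacytoid dendritic cells. It averaged 242 ± 61.3 CPM in monocyte-like, 235 ± 41.3 in patrolling monocyte-like, 206 ± 33.6 in cDC2-like, 167 ± 17.9 in cDC1-like, 157 ± 48.0 in macrophage-like and 107 ± 56.1 in neutrophil-like cells, then 47.6 ± 7.64 (n = 2) in cholangiocyte-like, 46.8 ± 11.54 (n = 4) in pDC-like (plasmacytoid dendritic) and 10.3 ± 6.08 in B-like cells. The steps from cDC2-like to cDC1-like, from neutrophil-like to cholangiocyte-like and from pDC-like to B-like cells exceeded the larger SD of the pair, and the others did not. Csf2rb ran from 128 ± 30.1 in pDC-like cells, over 123 ± 62.2 in neutrophil-like, to 72.1 ± 9.002 in cDC1-like cells with no step beyond the spread, and then dropped to 13.3 ± 13.7 in B-like cells. The basophil/mast-like cells held 31 Csf2rb UMIs in 15 of 22 cells, 348 CPM pooled (95% Poisson interval 236 to 493), and 0 of Csf2ra.

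The macrophage-like share of the GM-CSF receptor transcripts was higher in YAP7d, as was the share of macrophage-like cells, whose part was not tested. Macrophage-like cells held 5.36 and 22.9% of Csf2ra UMIs in WT, 14.5, 22.7, 31.2 and 13.7% in YAP3d and 54.9, 80.9 and 40.2% in YAP7d. For Csf2rb the shares were 15.6 and 15.8%, then 12.9, 22.5, 27.3 and 14.4%, then 61.8, 84.1 and 47.9%. In both genes all YAP7d libraries lay above all others. The mean differences from YAP3d were 38.1 and 45.3 percentage points (exact two-sided permutation p = 0.0286 for each, the smallest possible; 0.15 after adjustment over the 21 tests). For Csf1r the macrophage-like share was 63.8% ± 0.975 (SD, n = 2) in WT, 55.9% ± 11.3 (n = 4) in YAP3d and 74.3% ± 16.5 (n = 3) in YAP7d, and the groups overlapped (exact permutation p = 0.171 for YAP7d with YAP3d, 0.6 with WT).

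**Figure D4:**
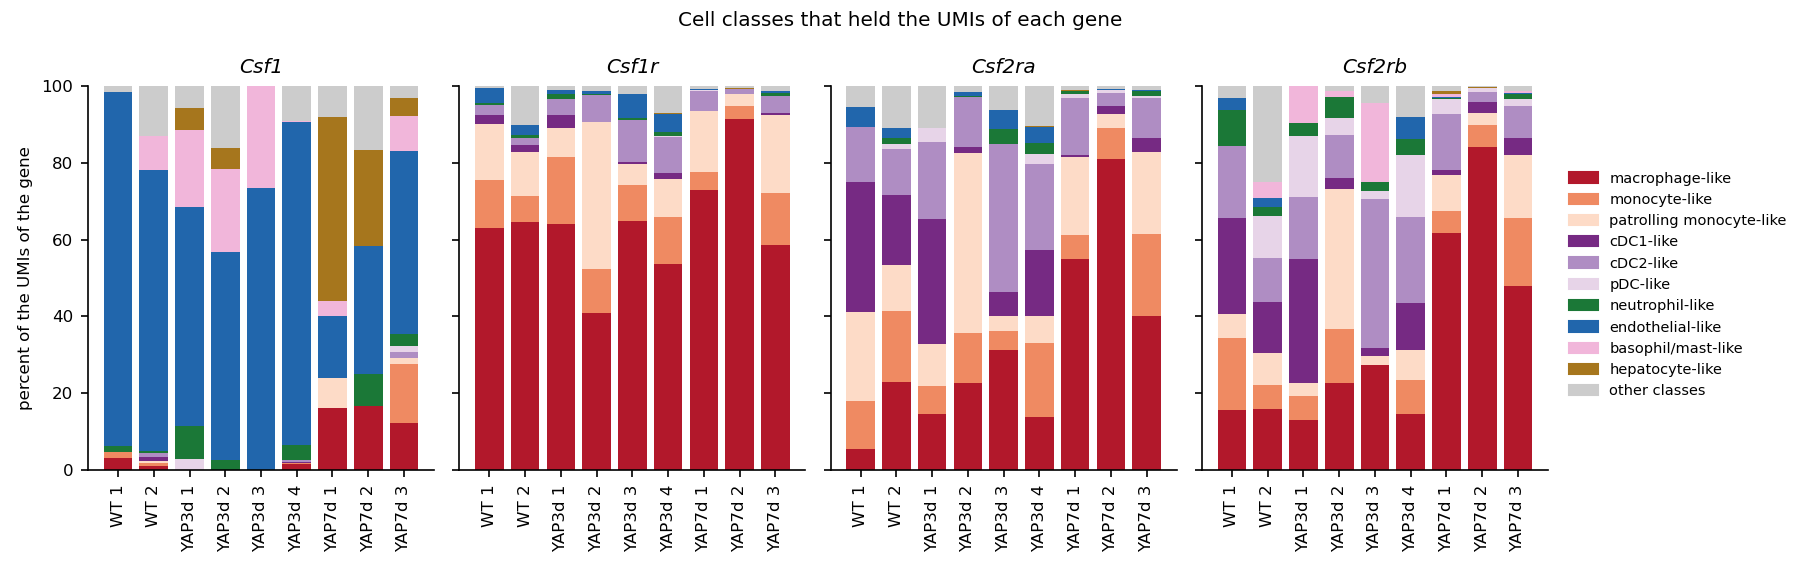
Percent of the UMIs of Csf1, Csf1r, Csf2ra and Csf2rb (y axes) that each cell class held in each library (x axes), as stacked bars. The endothelial-like part of the Csf1 bars shrinks from 92.2 and 73.03% in WT to 16.0 to 47.7% in YAP7d, and the macrophage-like part of the Csf2rb bars grows from 15.6 and 15.8% to 47.9 to 84.1%.

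Csf3r, the G-CSF receptor, was highest in neutrophil-like cells. They averaged 821 ± 425 CPM (SD, n = 4) against 49.8 ± 20.4 in monocyte-like cells, with no overlap. The 4 libraries with enough neutrophil-like cells read 1075 in WT replicate 2, 1082 and 935 in YAP3d replicates 2 and 4 and 191 in YAP7d replicate 3. The YAP7d library lay far below the others, but with 1 library each in WT and YAP7d there is no replicate and no test. At 2000 UMIs per cell, 8 of 9 (88.9%, exact Clopper-Pearson 95% interval 51.8 to 99.7), 87.5% (47.3 to 99.7), 75.9% (56.5 to 89.7) and 29.4% (17.5 to 43.8) of these cells had a Csf3r UMI, beside 0 to 0.901% of T-like cells. The median depth was 1938, 2040, 2177 and 6364 UMIs, with 15, 7, 16 and 0 cells left out.

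Neutrophil genes that mark stages of maturation also differed between these 4 libraries, and not all in 1 order. Camp, a granule protein of immature cells, read 19.5, 607, 6917 and 12055 CPM in the same order of libraries, Ngp 0, 2508, 6258 and 16115, and Ltf 0, 132, 1279 and 2661, both of them granule proteins too. Cxcr2, the chemokine receptor of mature neutrophils, read 645, 660, 391 and 188 CPM. These 4 genes were at their highest or lowest in the YAP7d library. Retnlg, read mostly in mature neutrophils, was also highest there (7600, 23100, 8794 and 26412). Il1r2 was lowest there (957, 713, 1371 and 449), whereas Mmp9 (996, 1162, 728 and 741) and S100a8 (65155, 155706, 97786 and 148166) did not set that library apart. In the same 4 libraries the monocyte markers summed to 4747, 6838, 7177 and 13986 CPM and the macrophage markers to 664, 317, 659 and 2068 CPM, and their part in the Csf3r level was not tested.

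**Figure D5:**
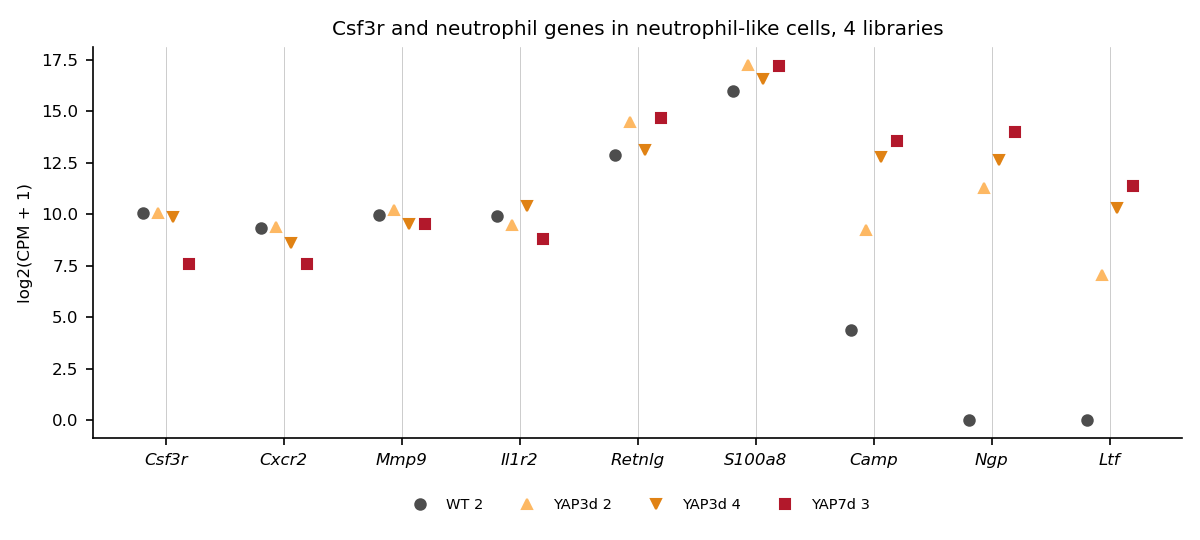
Level (log2 of CPM + 1, y axis) of Csf3r and neutrophil genes in the neutrophil-like cells of the 4 libraries with at least 10 of them (x axis). Csf3r is at 191 CPM in YAP7d replicate 3 against 935 to 1082 in the others. In YAP7d replicate 3 Camp, Ngp, Ltf and Retnlg are highest, Cxcr2 and Il1r2 are lowest, and Mmp9 and S100a8 lie among the values of the other libraries.

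Csf3r was low in the other myeloid classes. In macrophage-like cells it read 25.5 and 25.9 CPM in WT, 34.4, 7.41, 45.9 and 43.9 in YAP3d and 4.99, 9.27 and 8.49 in YAP7d (−1.75 ± 0.70 from WT and −1.91 ± 0.53 from YAP3d, edgeR adjusted p = 0.186 and 0.147). In monocyte-like cells it read 61.2 in WT, 67.8 and 69.6 in YAP3d and 49.4, 20.6 and 30.04 in YAP7d (−1.02 ± 0.39 from YAP3d, edgeR adjusted p = 0.999). Neither passed the test, YAP3d replicate 2 overlapped YAP7d in macrophage-like cells, and with a term for the Gm10709 libraries the difference from WT there turned to 0.37 (edgeR, adjusted p = 0.9999). In patrolling monocyte-like cells it read 54.8 in WT, 32.4 and 39.1 in YAP3d and 9.69 to 32.1 in YAP7d. In both monocyte classes all YAP7d libraries lay below the YAP3d libraries and the 1 WT library. In macrophage-like cells they lay below WT. In the 3 dendritic classes Csf3r read 0 to 12.2 CPM, with no order of the groups that those 3 classes shared. Over all cells Csf3r had 17.2 and 18.4 CPM in WT, 11.1 to 29.1 in YAP3d and 6.97 to 15.7 in YAP7d (−0.52 ± 0.47, edgeR adjusted p = 0.451).

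Neutrophil-like cells held 45.5 and 40.7% of Csf3r UMIs in WT, 65.0, 46.6, 52.6 and 56.0% in YAP3d and 4.17, 0 and 18.8% in YAP7d. The YAP7d mean differed by −47.4 percentage points from YAP3d (exact two-sided permutation p = 0.0286, the smallest possible; 0.15 adjusted over the 21 tests) and by −35.4 from WT (exact permutation p = 0.1, the smallest possible). YAP7d replicates 1 and 2 had 5 and 1 neutrophil-like cells, and in YAP7d replicate 2 the 24 of 29 Csf3r UMIs that made 82.8% were in macrophage-like cells.

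Flt3, the receptor of Flt3l, kept to the dendritic classes and overlapped between the groups in cDC2-like cells, the only dendritic class tested. It averaged 172 ± 29.2 CPM (SD, n = 4) in cDC1-like, 98.6 ± 34.8 (n = 8) in cDC2-like and 61.2 ± 28.0 (n = 4) in pDC-like cells, each step being larger than the SD of either class, and 9.34 in monocyte-like cells. In cDC1-like cells it read 213 and 158 CPM in WT, 147 in YAP3d and 169 in YAP7d. In pDC-like cells it read 22.8 CPM in WT, on 3 UMIs, 88.7 in YAP3d and 72.6 and 60.9 in YAP7d. With 1 YAP3d library in each, these classes were not tested. In cDC2-like cells the log2 fold change from YAP3d to YAP7d was −0.29 ± 0.32 (edgeR, adjusted p = 0.905), and 0 of 4 genes of the set were called by edgeR at either threshold or by DESeq2, beside 0.0337% of 2967 genes at edgeR's adjusted threshold (257 at an unadjusted p under 0.05; 11 called by DESeq2). Over all cells Flt3 read 18.3 and 13.4 CPM in WT, 9.25 to 36.5 in YAP3d and 7.21 to 17.6 in YAP7d (−0.09 ± 0.52, edgeR adjusted p = 0.921). The gene overlaps Gm26597, which had 26 UMIs against 1036 of Flt3.

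The share of Flt3 UMIs in cDC1-like cells was 65.7 and 64.3% in WT, 74.5, 35.7, 42.5 and 41.8% in YAP3d and 22.4, 30 and 39.1% in YAP7d. The YAP7d mean differed by −34.5 points from WT, without overlap (exact two-sided permutation p = 0.1, the smallest possible), and overlapped YAP3d. In YAP7d cDC2-like cells held 65.7, 36.7 and 35.0%.

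Of 11 further ligands and receptors of the family 6 were tested over all cells. From WT to YAP7d 0 rose and 1 fell (Kit), where 7.17% of all genes were called higher and 10.9% lower, and from YAP3d to YAP7d 1 rose (Csf2rb2) and 3 fell (Csf2, Kit and Kitl), where 6.64% and 9.83% were, with a median log2 fold change of −1.09 and −1.24 against −0.02 and −0.07 over all genes. The Csf2rb2 call (0.89, edgeR adjusted p = 0.0315) was lost without WT replicate 1, YAP3d replicates 1 or 3 or any 1 YAP7d library (in that order 0.91, 0.79, 0.90, 0.98, 0.90 and 0.83, adjusted p = 0.0502 to 0.0983) and with the replicate block (1.06, 0.0621). The Kitl call (−1.29, edgeR adjusted p = 0.0440) was lost without either WT library, YAP3d replicates 1 or 4 or YAP7d replicates 1 or 3 (−1.26, −1.25, −1.14, −1.09, −1.22 and −0.99, adjusted p = 0.0681 to 0.156), with the replicate block (−1.02, 0.125) and with at least 2000 UMIs per cell (−1.25, 0.0519). Kit, the stem cell factor receptor, fell from 80.5 ± 30.01 CPM (SD, n = 2) in WT to 6.52 ± 1.24 (n = 3) in YAP7d (−3.44, edgeR adjusted p = 0.00431), and 1554 of its 1842 UMIs were in endothelial-like cells. Within those cells it fell from 189 ± 34.9 to 88.4 ± 10.1 CPM (−1.02, edgeR adjusted p = 0.00669; −0.81 and 0.0796 without WT replicate 1). Its ligand Kitl went the other way there, from 37.0 ± 2.84 to 83.9 ± 17.3 CPM (1.19, edgeR adjusted p = 0.0492), a call lost without WT replicate 1 (1.27, 0.116), WT replicate 2 (1.11, 0.195), YAP7d replicate 1 (1.27, 0.0703), YAP7d replicate 2 (1.11, 0.112) or YAP7d replicate 3 (1.33, 0.0806). It was also lost with DESeq2 (1.23, adjusted p = 0.0715) and with at least 2000 UMIs per cell (1.18, edgeR adjusted p = 0.0607), and with a term for the Gm10709 libraries little of the difference was left (0.16, edgeR adjusted p = 0.925).

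Csf2, which encodes GM-CSF, had 359 of 404 UMIs in T-like cells. Over all cells it read 18.8 and 12.95 CPM in WT, 32.6, 5.29, 57.5 and 4.59 in YAP3d and 3.33, 1.202 and 1.32 in YAP7d, and it fell from YAP3d to YAP7d (−3.42 ± 0.90, edgeR adjusted p = 0.0289). The call was lost without YAP3d replicate 1 (−3.22, edgeR adjusted p = 0.0644), YAP3d replicate 3 (−2.49, 0.0742), YAP7d replicate 1 (−3.86, 0.0553), YAP7d replicate 2 (−3.24, 0.0888) or YAP7d replicate 3 (−3.12, 0.107). Within T-like cells Csf2 read 17.3 to 200 CPM in YAP3d and 10.2 to 28.1 in YAP7d, which overlapped (−2.20, edgeR adjusted p = 0.208). This comparison passed in 2 of 9 fits under other settings, where the fold change ran from −2.74 to −1.84. Csf3, which encodes G-CSF, had 30 UMIs in all, and Il3 and Il5 had 0.

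Of 34 signalling genes below these receptors, 33 were tested over all cells and 3 rose and 3 fell from WT to YAP7d, shares near the 7.17% and 10.9% of all genes by edgeR, with a median log2 fold change of 0.14. Tyrobp and Fcer1g, adaptor proteins of myeloid cells, rose by 1.65 and 1.74 on the log2 scale (edgeR, adjusted p = 0.0394 and 0.0328). Jak1, a kinase of cytokine receptors, fell from 444 ± 114 to 152 ± 37.6 CPM (−1.40, edgeR adjusted p = 0.00928; −1.17 and 0.0755 without WT replicate 1). Of 23 lineage factors 21 were tested; 2 rose and 3 fell, again near the shares of all genes by edgeR (median 0.34). DESeq2 called 10 of the signalling genes and 11 of the lineage factors, beside 2682 genes in all. Spi1, which encodes PU.1, rose from 145 ± 62.8 to 514 ± 88.6 CPM (1.9996, edgeR adjusted p = 0.0345). Zbtb46, a factor of conventional dendritic and endothelial cells, fell from 35.6 ± 6.43 to 4.73 ± 1.68 CPM (−2.69, edgeR adjusted p = 0.00674), a call held without any single library. The calls of Tyrobp, Fcer1g and Spi1 were lost without WT replicates 1 or 2 or YAP7d replicates 1, 2 or 3 (in that order Spi1 1.58, 2.59, 2.13, 2.11 and 1.74, edgeR adjusted p = 0.0533 to 0.234; Tyrobp 1.31, 2.09, 1.73, 1.73 and 1.498, 0.0638 to 0.260; Fcer1g 1.51, 2.002, 1.80, 1.85 and 1.58, 0.0556 to 0.218).

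Within macrophage-like cells 17 lineage factors were tested and 0 were called from WT to YAP7d by edgeR's adjusted test (5 at an unadjusted p under 0.05; 1 called by DESeq2), where 2.42% of the 6641 genes were (1233 at an unadjusted p under 0.05; 235 called by DESeq2), with a median log2 fold change of −0.64 against 0.02 over all genes. In endothelial-like cells 0 of 22 signalling genes rose and 3 fell, and of 15 lineage factors 2 rose and 4 fell, where 9.63% of all genes were called higher and 8.68% lower. Maf fell from 1332 ± 439 to 482 ± 102 CPM (−1.45, edgeR adjusted p = 0.000158), and Socs1, an inhibitor of cytokine signals, from 61.0 ± 1.05 to 20.5 ± 12.9 (−1.20, edgeR adjusted p = 0.0262), a call lost without WT replicates 1 or 2 or YAP7d replicates 1 or 2 (−1.20, −1.17, −1.03 and −0.91, adjusted p = 0.0803 to 0.110), with DESeq2 (−1.24, 0.0944) and with the Gm10709 term (−1.47, 0.205). Irf8, a factor of monocyte and dendritic development, was 1 of those that rose, from 78.6 ± 7.44 to 219 ± 20.2 CPM (1.505, edgeR adjusted p = 0.000323), and lost its call with the Gm10709 term (1.001, edgeR adjusted p = 0.106).

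The genes most like each of the 7 other than Il34 across 14 classes were named by the correlation of mean log2(CPM + 1) values, which describes shared cell types only, since the points come from the same libraries. Only the 6749 genes that reached 50 CPM in at least 1 class were compared. Csf1r lay closest to Igsf6 (Pearson r = 0.939), Clec4a1 (0.931) and Lyz2 (0.928), and Csf3r to Clec4d (0.975), Trem3 (0.965) and Trem1 (0.963). Csf2rb lay closest to Themis2 (0.968), Pirb (0.965) and Mpeg1 (0.939), and Csf2ra to Aph1c (0.934), Lgals3 (0.923) and Tkt (0.923). Flt3 was nearest to Clec9a (0.901), Mycl (0.889) and Bloc1s2 (0.875), Flt3l to Sugt1 (0.900), Tnik (0.878) and Cd27 (0.875), and Csf1 to Hoxb2 (0.916), Pcolce (0.902) and Mgll (0.901). Among the genes themselves Csf1r and Csf2ra (r = 0.865) and the 2 GM-CSF receptor chains (r = 0.817) were the nearest pairs, and Csf1 and its receptor Csf1r gave r = −0.19.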

How the data were processed

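The deposited table holds raw UMI counts per gene and cell, which the authors made with Cell Ranger (default parameters) on the mm10 build and analysed in Seurat 2 with replicates merged; the gene annotation is not given in the sources used here. Columns were assigned to libraries by their names. Cells with under 200 genes were left out. Counts were scaled and log-transformed with scanpy 1.11.5, and 2435 of 2500 variable genes, without the 8 genes, the pathway lists and cell-cycle genes, were clustered (30 components, 15 neighbours, Leiden resolution 1), which gave 25 clusters. These were named from 193 markers, of which 188 were in the table. Scrublet (expected rate 0.05) called 60 doublets (0.704%), which were kept.

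Counts were summed per library and class (at least 10 cells), filtered with filterByExpr, scaled by TMM and tested by quasi-likelihood in 1 fit of the 3 groups (edgeR 4.0.16, R 4.3.3), with Benjamini-Hochberg adjustment over all genes tested and a threshold of 0.05. The fit was tested on simulated data. DESeq2 1.42.0 was the second tool. Classes with too few WT libraries were fitted for YAP7d and YAP3d alone, a step added after the data were seen. Shares of UMIs were compared by exact two-sided permutation tests. The genes named were the 8, the 5 largest called rises and falls of the pathway lists in each class and comparison as candidates, of which a selection is given, and the 3 nearest genes by correlation. The 8 genes, lists and markers were chosen with earlier results of these data known. Promoter sequences and coordinates come from RefSeq tables for GRCm38.p6. The signalling list is not reported here for macrophage-like cells. Intervals cover counting error only.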

Additional observations from a re-analysis of the deposited data

Results flagged for a closer look

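In T-like cells Csf1 read 10.5 CPM in YAP3d replicate 2 and 0 to 1.44 CPM in the other YAP3d libraries, a gap that is large for the range of the group. The 10.5 CPM rested on 6 UMIs, all in the 23 cells that cluster 22 had in YAP3d replicate 2. Over all cells Csf2ra read 138 CPM in the same library and 42.7 to 46.9 in the other YAP3d libraries. In endothelial-like cells Csf2rb read 5.68 CPM in YAP3d replicate 4 and 0 in the other 3 YAP3d libraries. Each was marked because a single sample lay far from its group by Dixon's criterion, which chance meets in about 1 of 20 groups.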

How the results depend on the processing

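Of 609 fold changes of single genes under other settings, 499 kept direction and side of the threshold, 95 lost a call, 7 gained one and 8 reversed. For shares of UMIs, a comparison of YAP7d with YAP3d cannot pass 0.05 once a library of either is left out, nor can one with WT at all, so that whether they passed says nothing about stability.

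Csf1 in endothelial-like cells (−1.12 from WT to YAP7d) lost its call, leaving 0 genes of the set called there, with DESeq2 (−1.14), with the replicate block (−1.05), with a term for the libraries above 100 CPM of Gm10709 (−1.57) and without doublets (−0.99). Csf1r in macrophage-like cells (−1.20) lost its call, leaving 0, with the Gm10709 term (−0.55) and with at least 2000 UMIs per cell (−1.17). With the Gm10709 term Csf3r in macrophage-like cells turned to 0.37. The 100 CPM threshold was set after the data were seen. With at least 500 genes and at most 10% mitochondrial UMIs the Csf1 share in endothelial-like cells differed by −34.7 points between YAP7d and YAP3d (exact permutation p = 0.0571). Thinned to 1000 UMIs, the mean share of cells with a UMI was 54.6% for Csf1r in macrophage-like cells (76.9% at 2000), 4.46% for Csf1 in endothelial-like (8.01%), 6.42% for Flt3l in T-like (10.8%) and 20.3% for Flt3 in cDC1-like cells (27.2%). The cause of these changes was not tested.

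Leaving out 1 library, where a lone WT library is assumed to vary like the other groups, moved these values: genes of the set called over all cells 1 to 4 (4 against WT, 3 against YAP3d), in endothelial-like cells 0 to 1 in each comparison and in macrophage-like cells 0 to 1; log2 fold changes from WT to YAP7d of Csf1 in endothelial-like cells −1.74 to −0.93, Csf1r over all cells 1.504 to 2.33, Csf1r in macrophage-like cells −1.29 to −1.10, Csf2ra in macrophage-like cells −0.079 to 2.26, Flt3 over all cells −0.61 to 0.19 and Flt3l in NK/ILC-like cells −0.71 to 0.45; from YAP3d to YAP7d Csf1r in monocyte-like cells −0.41 to 0.022 and in patrolling monocyte-like cells −0.47 to 0.067; and shares of UMIs between YAP7d and YAP3d −42.6 to −26.7 points for Csf1, 26.9 to 47.3 for Csf2ra, 35.5 to 53.7 for Csf2rb and −53.0 to −43.5 for Csf3r.

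All genes called from WT to YAP7d numbered 2184 over all cells (509 to 3179 leaving out a library), 1367 in endothelial-like cells (662 to 1391; 233 with the Gm10709 term) and 161 in macrophage-like cells (2 to 500; 541 with no filter, 345 with the replicate block, 0 with the Gm10709 term, 36 with at least 2000 UMIs, 90 with at least 500 genes). Replicate numbers did not pair the samples (correlations of deviations from −0.29 to 0.21); with the number as a block the endothelial-like Csf1 call was lost also against YAP3d (−1.10, edgeR adjusted p = 0.0775), leaving 0, and the macrophage-like Csf1r call was kept. DESeq2 called 10 signalling genes and 11 lineage factors over all cells from WT to YAP7d (6 and 5 by edgeR) beside 2682 genes in all, and 0 and 3 in endothelial-like cells (3 and 6) beside 924 in all.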

Other observations

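The 22 cells without a class name, led by Prg4, Alox15 and Saa3, held 100 UMIs of Csf1r, 34 of Csf3r, 31 of Csf2ra, 19 of Csf2rb and 3 of Csf1. Of these cells 15 came from WT replicate 2, where Csf1r read 328 CPM and Csf3r 123 CPM in them.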
